A study of Mus musculus with 24 samples.

Results

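The neutrophil granule and maturation genes are 35 genes that developing and mature neutrophils use, out of 55414 genes in the count tables of this mouse bone marrow study. They were chosen by name, from a list of known neutrophil genes, and all 35 were found by symbol. They fall into 3 early regulators and markers, 4 primary granule genes, 12 specific granule genes, 8 genes of gelatinase granules and cytosol, and 8 surface receptors. Their RNA was measured by RNA-seq in 24 libraries of C57BL6/J bone marrow, 2 for each of 12 groups, with wild-type (WT) and Srcap mutant samples in every condition. Srcap encodes a chromatin remodelling ATPase, and the file headers call the mutants "het" or "Mut" without naming the allele. Haematopoietic stem and progenitor cells (HSPCs, "LSK" in the headers) came from untreated animals labelled germline, from animals 12 hours after intraperitoneal doxorubicin (a DNA-damaging chemotherapy drug), from animals 2 weeks after transplantation, and from animals 20 weeks after competitive transplantation, for which the series text names CD45.2+ donor cells. Cells labelled bone marrow B cells and T cells were taken at 2 weeks after transplantation only. The sources used here state neither sex and age nor conditioning or the hosts' remaining cells.

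Neutrophils are made in the marrow from granulocyte-monocyte progenitors, and their granule proteins are transcribed in a fixed order. Promyelocytes make the primary (azurophil) granule proteins, myelocytes and metamyelocytes make those of specific granules, and band and segmented cells make gelatinase granule proteins and the receptors that guide them out of the marrow. The factors C/EBPα, PU.1 and RUNX1 drive the primary granule genes, and C/EBPε is needed for the specific granule genes. Granule transcripts are abundant in marrow, and a bulk RNA sample can hold several stages and other cells at once. The balance of these genes therefore describes a sample and does not assign it to a stage.

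Several libraries did not match their labels or stood apart, and every result that rests on them is given with that in view. In the 4 libraries labelled T cells, Cd3e, an invariant T cell receptor chain, was at 0.0883 to 1.56 CPM (counts scaled to the library total). Cd3d, another such chain, was at 7.44 to 8.76 CPM, above the B cell libraries (1.5 to 6.66 CPM) and HSPCs (at most 2.49 CPM). The 14 T cell markers summed to 23.5 to 37.5 CPM in the libraries labelled T cells, although at least 13 of the 14 were detected. They summed to 202 to 251 CPM in the B cell libraries, mostly Cd2 (106 to 163 CPM) and Lck (40.5 to 49.5 CPM). The B cell libraries did carry their markers, with 9 of 9 B cell genes at 7849 to 10649 CPM in sum. All HSPC libraries expressed Kit, the stem cell factor receptor, at 311 to 601 CPM. The untreated WT replicate 1 held far more granulocyte RNA than the other HSPC libraries, as shown next. The untreated and doxorubicin libraries share 1 directory in the file headers, the 20-week libraries another and all 2-week libraries yet another. The 2-week libraries also held Xist at 320 CPM or more, against at most 0.484 CPM in the others, which held Ddx3y instead. Time after transplantation, file directory and sex therefore cannot be told apart when 2-week HSPCs are compared with untreated ones, and time and directory cannot be told apart at 20 weeks. All 35 genes passed the low-count filter of both fits, some of them only through the groups where they are high. Library totals ran from 26369992 to 78432483 counts. No label says that each library is 1 animal, so p-values cover the spread between these libraries and no more.

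The 35 genes took 16.3% to 18.4% of all counts in the 4 libraries labelled T cells, 0.453% to 1.52% in the B cell libraries and 0.724% to 1.2% in HSPCs at 2 weeks. In 11 of the 12 other HSPC libraries the share was between 0.0686% and 0.111%. The untreated WT replicate 1 was the exception at 2.78%. That library was higher than the 3 other untreated libraries in 35 of the 35 genes, and it was the highest of all 16 HSPC libraries in 28. The rank of a single library, here and below, was counted over the members only and not over all genes. Its own progenitor markers summed to 3511 CPM, within the range of 3118 to 3870 CPM of the untreated libraries, and its monocyte and macrophage list stood at 641 CPM against 255 to 263 CPM in the other 3. In these bulk samples, fewer cells of a type and less RNA per cell cannot be told apart.

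**Figure D1:**
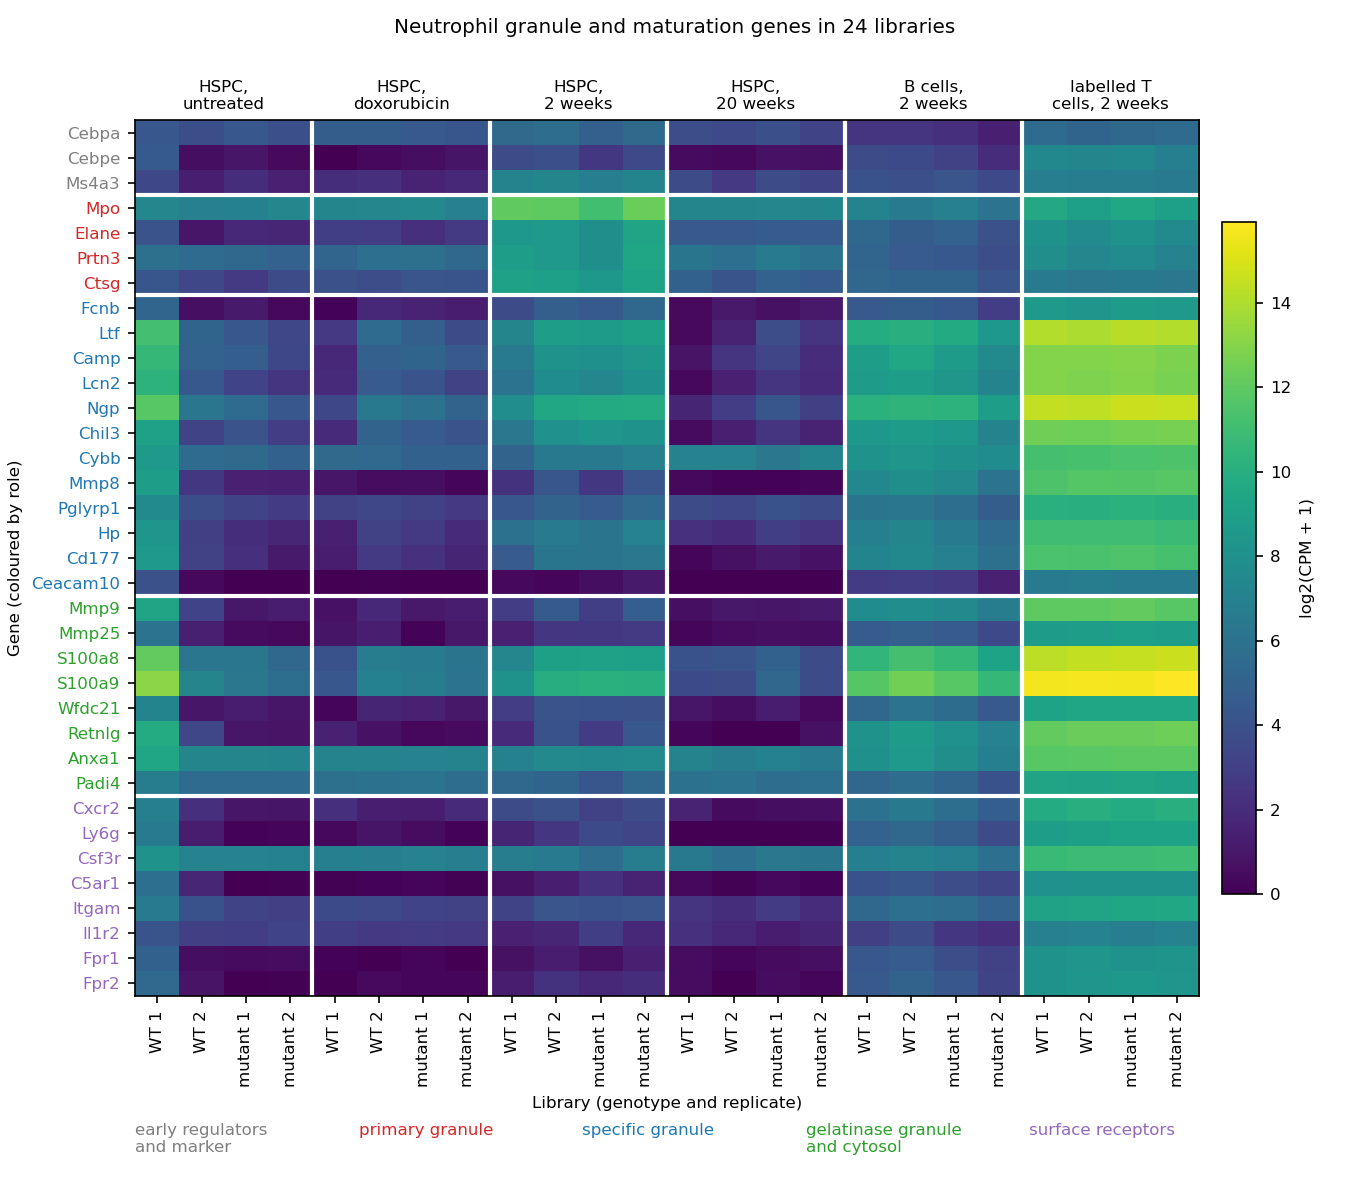
Heat map of log2(CPM + 1) for the 35 genes (rows, grouped by role and coloured by it) in each of the 24 libraries (columns, by cell label and condition). The libraries labelled T cells are brightest in the specific granule and cytosol rows, HSPCs at 2 weeks in the primary granule rows, and the untreated WT replicate 1 stands out from the other untreated libraries in rows below the primary granule genes.

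The promoters of the early and later genes were set side by side, since the members fall into these classes by the stage at which they are transcribed. RefSeq's GRCm38.p6 promoter table held 31 of the 35 genes (all but Cebpe, Hp, Mmp9 and Wfdc21). The 250 bases before each start were searched on both strands for TTNNGNAA, a C/EBP-type pattern, GAGGAA, an ets pattern of the kind PU.1 binds, and TGTGGT, the RUNX core. Letters of the C/EBP-type and ets patterns can overlap, and their matches did so in 0 of the 31 members. The sequences of 3 primary granule genes and 3 later genes are shown 5′ to 3′ on the gene's strand, with the bases of every match in capitals.
Mpo, chr11:87793534-87793783, plus strand: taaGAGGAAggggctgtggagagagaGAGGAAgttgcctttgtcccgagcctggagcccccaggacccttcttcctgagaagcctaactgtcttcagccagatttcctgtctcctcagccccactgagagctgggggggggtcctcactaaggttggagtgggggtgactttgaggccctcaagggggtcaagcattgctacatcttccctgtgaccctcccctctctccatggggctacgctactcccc
Elane, chr10:79886062-79886311, plus strand: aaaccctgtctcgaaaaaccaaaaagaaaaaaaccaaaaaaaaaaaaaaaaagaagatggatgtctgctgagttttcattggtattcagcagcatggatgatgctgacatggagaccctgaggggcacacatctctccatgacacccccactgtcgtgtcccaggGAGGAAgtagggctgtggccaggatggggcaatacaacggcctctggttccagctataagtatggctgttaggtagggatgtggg
Ctsg, chr14:56102575-56102824, minus strand: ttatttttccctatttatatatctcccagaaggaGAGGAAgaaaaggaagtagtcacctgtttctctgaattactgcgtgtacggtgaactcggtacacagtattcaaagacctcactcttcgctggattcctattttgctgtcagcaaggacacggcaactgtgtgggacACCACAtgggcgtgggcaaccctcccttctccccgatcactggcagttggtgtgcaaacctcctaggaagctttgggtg
Ltf, chr9:111019042-111019291, plus strand: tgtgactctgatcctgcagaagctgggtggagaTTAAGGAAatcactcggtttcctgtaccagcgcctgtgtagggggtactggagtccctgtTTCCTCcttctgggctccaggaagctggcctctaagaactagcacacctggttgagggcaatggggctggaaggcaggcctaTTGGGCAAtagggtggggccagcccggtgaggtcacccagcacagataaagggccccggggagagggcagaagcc
Camp, chr9:109849457-109849706, minus strand: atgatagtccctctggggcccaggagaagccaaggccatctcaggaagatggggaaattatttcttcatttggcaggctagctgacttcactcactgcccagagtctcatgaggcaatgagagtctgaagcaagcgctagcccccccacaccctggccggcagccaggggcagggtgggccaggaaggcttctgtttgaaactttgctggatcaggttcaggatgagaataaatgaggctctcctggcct
S100a8, chr3:90668821-90669070, plus strand: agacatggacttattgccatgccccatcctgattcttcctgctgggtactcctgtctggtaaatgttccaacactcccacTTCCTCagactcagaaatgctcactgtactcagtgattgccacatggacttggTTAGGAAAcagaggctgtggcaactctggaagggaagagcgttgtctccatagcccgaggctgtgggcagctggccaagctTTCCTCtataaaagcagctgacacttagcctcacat
The ets pattern was in the window of 4 of 4 primary granule genes (Mpo held it at 2 places) and in 14 of 25 later genes, against 23.1% of 27025 promoters. The C/EBP-type pattern was in 0 of 4 primary granule genes and 16 of 25 later genes, against 36.9% of all promoters. Ngp, Chil3 and Fpr1 each held it at 3 places, while Camp held none of the 3 patterns. The RUNX core was in 4 of 31 members (12.9%), Ctsg, Cybb, S100a9 and C5ar1, against 14.2% of all promoters. A match describes these letters only and is not evidence of a bound site. The lack of a match in these 250 bases is not evidence that a site is absent.

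The first comparison asked how the cell labels differ at 2 weeks. Of the primary granule genes, 2 of 4 were lower in the libraries labelled T cells than in HSPCs (3 of 4 when scaled by library totals), while 28 of 28 later genes were higher there on both scales. Fitted fold changes use TMM scaling, which sets the bulk of genes level between libraries, so they differ from ratios of the printed CPM. The TMM factors were 0.666 to 0.733 in the libraries labelled T cells and 1.22 to 1.29 in HSPCs at 2 weeks. A fit on library totals alone, the scale of the CPM, moved the median of all genes from 0.03 to -0.79 in this comparison, from -0.16 to -0.86 between the libraries labelled T cells and B cells, from 0.06 to -0.06 between B cells and HSPCs, and from 0.02 to -0.33 at 20 weeks against untreated. Mpo, myeloperoxidase of the primary granule, was at 4120 and 3979 CPM in WT HSPCs and at 2206 and 5257 CPM in mutant HSPCs. In the libraries labelled T cells Mpo was at 777 and 506 CPM (WT) and 710 and 505 CPM (mutant), below every HSPC library at that time, and the fitted log2 fold change was -1.79 ± 0.33 (SE; adjusted p = 0.00196, edgeR's quasi-likelihood test). Ctsg, the serine protease cathepsin G, went the same way, from 563, 512, 366 and 609 CPM in HSPCs to 99.7, 77.8, 87.2 and 78.4 CPM, a log2 fold change of -1.73 ± 0.22 (adjusted p = 7.15e-05).

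Elane and Prtn3, the neighbouring serine proteases neutrophil elastase and proteinase 3, did not pass the test in that comparison. Elane was at 355, 373, 245 and 629 CPM in HSPCs and at 295, 203, 285 and 189 CPM in the libraries labelled T cells, so the groups overlapped. Prtn3 ranged from 241 to 659 CPM in HSPCs and from 135 to 233 CPM in the libraries labelled T cells, with a fitted log2 fold change of -0.41, and it was called lower on library totals (-1.26 ± 0.36, adjusted p = 0.0175).

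Ltf, lactoferrin of the specific granule, was at 149 and 492 CPM in WT HSPCs and at 434 and 533 CPM in mutant HSPCs. In the libraries labelled T cells it was at 17141, 16176, 18950 and 17609 CPM. The fitted fold was 79.1 with TMM scaling (log2 6.30 ± 0.52, adjusted p = 2.36e-05) and 44.3 on library totals. Camp, the cathelicidin antimicrobial peptide, rose from between 99.2 and 339 CPM in HSPCs to between 7036 and 8324 CPM, a log2 fold change of 5.87 ± 0.49 (adjusted p = 2.28e-05). For both genes the libraries of the 2 labels were far from overlapping.

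Mmp9, gelatinase B, was at 6.32, 21.8, 6.87 and 25.7 CPM in HSPCs and at 3974, 4054, 4341 and 3591 CPM in the libraries labelled T cells (log2 8.89 ± 0.71, adjusted p = 2.85e-05). Cxcr2, the chemokine receptor for marrow exit, was at 7.77 to 14.3 CPM against 886 to 1042 CPM (log2 7.29 ± 0.30, adjusted p = 2.11e-08). The largest fold was that of Retnlg, a resistin-like secreted protein, at 2.92 to 19.3 CPM against 4316 to 5385 CPM (log2 9.70 ± 0.83). Mmp8, the neutrophil collagenase, followed at log2 9.06 ± 0.83 and Fpr1, a formyl peptide receptor, at 9.0 ± 0.33. Among the other members, Lcn2, a lipocalin that binds bacterial siderophores, stood at 6.30, Hp, haptoglobin, at 5.39, Cd177, a neutrophil surface glycoprotein, at 6.33 and Pglyrp1, a peptidoglycan recognition protein, at 6.04. Ceacam10, an adhesion molecule family member, stood at 8.65, C5ar1, the complement C5a receptor, at 8.05, Mmp25, a membrane-anchored protease, at 7.66, Fpr2, another formyl peptide receptor, at 7.63 and Wfdc21, a small secreted protein, at 6.51. Retnlg, Fpr1, Fpr2, Chil3, a chitinase-like protein, Ly6g and Ceacam10 have close relatives in the mouse genome, and their counts may be split with them.

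Of the 35 genes, 31 rose in the libraries labelled T cells and 2 fell, beside 61.9% of all 19018 genes called in either direction (32.6% higher, 29.3% lower). On library totals 29 rose and 4 fell, beside 65.9% (19.6% higher, 46.3% lower). The 28 genes later than the primary granule class made up 28 of the 31, with fitted log2 fold changes from 4.79 to 9.70. The remaining 3 were Cebpe, the specific granule regulator, at a log2 fold change of 4.81, and 2 genes whose direction turned with the scaling. Cebpa, the granulocyte lineage factor, was at 0.82 with TMM and -0.02 on library totals (adjusted p = 0.956), with a mean of 41.1 CPM against 42.2 CPM in HSPCs. Ms4a3, a marker of granulocyte-monocyte progenitors, was at 0.44 with TMM and -0.40 on library totals, where it was called lower (adjusted p = 0.0202), with a mean of 104 CPM against 138 CPM. The median over the members was 6.14, against 0.03 over all genes tested. In TMM-scaled CPM every library labelled T cells was above every 2-week HSPC library in 31 genes, beside 30.1% of all genes, and in CPM in 29, beside 18.3%. Leaving out any 1 library left 32 or 33 of the calls.

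Levels per kilobase put S100a9 first in the libraries labelled T cells, at 96000 to 118987 RPKM (CPM per kilobase of gene model), followed by its calprotectin partner S100a8 at 29735 to 37683 RPKM and the cathelicidin-like Ngp at 17343 to 20805 RPKM. In HSPCs at 2 weeks the level of S100a9 was 552 to 2102 RPKM, and the level of Mpo, 644 to 1535 RPKM, lay within that range. The libraries labelled T cells held Mpo at 147 to 227 RPKM and Elane at 192 to 300 RPKM, ranges that overlap. Their 14 monocyte and macrophage markers summed to 3109 to 3696 CPM, and their 10 erythroid genes to 3274 to 10711 CPM. The part of these cells in the result was not tested.

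The balance of early and late genes was summarised as the log2 ratio of the summed counts per kilobase of the 4 primary granule genes to those of the 12 specific granule genes. It was 0.87 ± 1.0 (SD, n = 4 libraries) in HSPCs at 2 weeks and -6.24 ± 0.29 in the libraries labelled T cells. The B cell libraries lay between, at -4.44 ± 0.39. Among the 4 2-week HSPC libraries the ratio was 2.24 and 0.56 in WT and -0.15 and 0.82 in mutant. The WT replicate 1 had the highest ratio and was also the lowest of the 4 in 23 of the 28 later genes. The mutant replicate 1 had the lowest ratio and the lowest primary granule sum, 1386 RPKM against 2260 to 3145 RPKM in the others.

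Against the 16 gelatinase, cytosol and receptor genes, the same ratio was 0.03 ± 1.06 in HSPCs at 2 weeks, -6.51 ± 0.57 in B cells and -7.97 ± 0.42 in the libraries labelled T cells. HSPCs at 20 weeks had primary to specific ratios of 1.98, 1.40, 1.32 and 1.38 across WT and mutant, with no negative value. After doxorubicin the 4 values were 1.56, -0.81, -0.39 and -0.03. In untreated HSPCs they were -5.95 and -1.05 in WT and -0.66 and 0.72 in mutant. The value of -5.95 belonged to the untreated WT replicate 1 and was close to those of the libraries labelled T cells, while the other 3 untreated libraries overlapped those given doxorubicin. The sums are set by a few abundant genes such as S100a9 and Ngp. With the mean log2(RPKM + 0.5) of each class in their place, the untreated primary to specific mean turned from -1.74 to 0.40. The 2-week value was then 3.83 against the specific and 5.53 against the later genes, that of B cells -1.60 and -0.72, and that of the libraries labelled T cells -3.37 and -2.33.

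**Figure D2:**
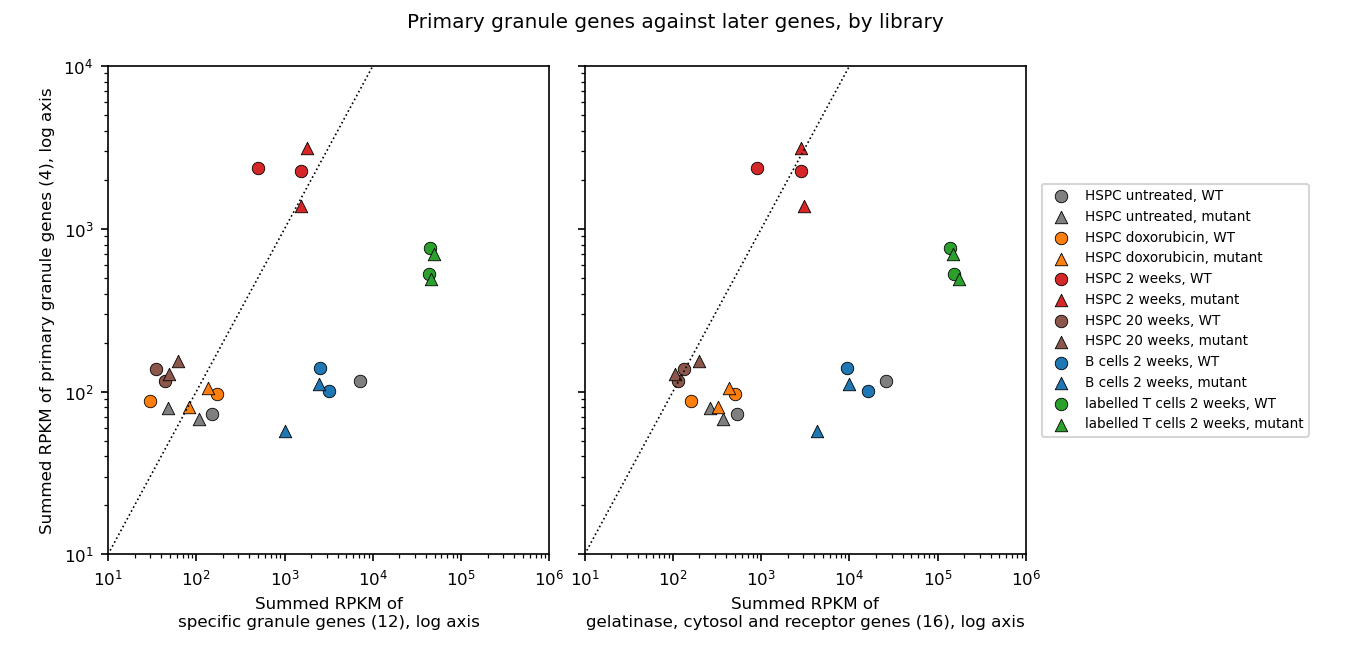
Summed RPKM of the 4 primary granule genes (vertical, log axis) against summed RPKM of the 12 specific granule genes (left) and of the 16 gelatinase, cytosol and receptor genes (right), 1 point per library, circles for WT and triangles for mutant. The dotted line marks equal sums. HSPCs at 2 weeks lie highest, the libraries labelled T cells lie far to the right, and 1 grey circle, the untreated WT replicate 1, lies apart from the other untreated HSPCs, to the right of the B cell points.

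The B cell libraries held fewer primary granule transcripts than HSPCs at 2 weeks and more of most later genes. Mpo was at 138 and 97.5 CPM in WT and at 121 and 64.8 CPM in mutant B cells, 33.9-fold below HSPCs (log2 -5.08 ± 0.38, adjusted p = 1.3e-05). Elane was at 14.5 to 41.0 CPM and fell by 3.73 on the log2 scale (SE 0.43, adjusted p = 2.32e-04 in the same edgeR fit). Prtn3 and Ctsg fell too, with log2 fold changes of -4.18 and -3.95. No B cell library reached the lowest HSPC library in any of these 4 genes.

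Among the later genes, Mmp9 was at 216, 226, 181 and 100 CPM in B cells, all above the 6.32 to 25.7 CPM of HSPCs (log2 3.68 ± 0.57, adjusted p = 0.00139). Cxcr2 was at 59.5, 87.1, 52.4 and 25.8 CPM, again with no overlap (log2 2.41 ± 0.25, adjusted p = 2.67e-05). Retnlg had a log2 fold change of 4.79, Fpr1 and Mmp8 of 3.99 each. Ltf, at 351 to 1058 CPM, overlapped with HSPCs and did not pass the test.

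In all, 19 of the 35 genes rose in B cells, all of them later genes, and 6 fell, beside 53.9% of all genes called (28.3% higher, 25.5% lower). Besides the 4 primary granule genes, Cebpa (log2 -3.52 ± 0.23) and Ms4a3 (-3.15 ± 0.15) fell. The median over the members was 1.10, against 0.06 over all genes tested. The count of called genes lay between 21 and 30 when 1 library was left out. The B cell libraries also held 7086 to 18647 CPM of the 10 erythroid genes, against 982 to 1730 CPM in HSPCs at 2 weeks, and 600 to 836 CPM of the monocyte and macrophage list. The part of these cells was not tested.

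Relative to the libraries labelled T cells, the B cell libraries were lower in 35 of 35 genes, beside 52.9% of all genes called (25.9% higher in the libraries labelled T cells, 27% lower). On library totals the count was again 35, beside 64.1% (16.3% higher, 47.8% lower). The fitted difference was close to the same for most later genes, at log2 4.01 to 5.23 with a median of 5.01 over the 28, and 4.30 on library totals. As a percentage of the mean CPM in the libraries labelled T cells, each of these 28 genes stood in B cells at 4.47% to 10.2%, with a median of 5.44%. Cybb, the gp91phox subunit of the phagocyte oxidase, which B cells also express, was the highest of them. The 4 primary granule genes stood at 11.5% to 35.8%, with Ctsg highest.

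The same percentages were uneven in HSPCs at 2 weeks, from 0.219% for Retnlg to 6.64% for Fcnb, a ficolin of specific granules, among the later genes. For the primary granule genes they were 165% to 623%. The untreated WT replicate 1 resembled the B cell libraries in evenness, with its 28 later genes at 9.21% to 22.3% of the libraries labelled T cells and a median of 15.4%. In the untreated WT replicate 2 the median over these genes was 0.298%. Anxa1, Padi4, Csf3r, Il1r2 and Itgam stood well above that median there, at 4.25%, 7.71%, 6.9%, 5.62% and 2.32%. These 5 encode annexin A1, a histone citrullinating enzyme, the G-CSF receptor, the decoy interleukin-1 receptor and the integrin CD11b.

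**Figure D3:**
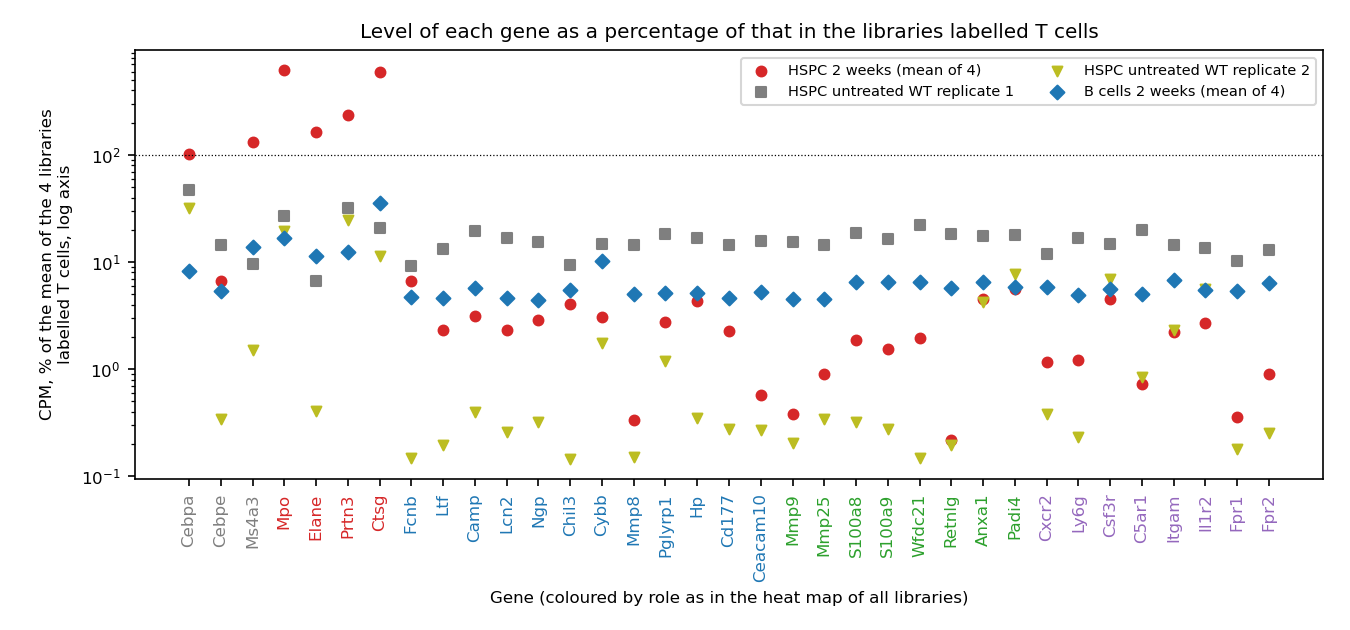
CPM of each of the 35 genes as a percentage of its mean in the 4 libraries labelled T cells (log axis), for the mean of the 4 B cell libraries, the mean of the 4 2-week HSPC libraries and 2 single untreated WT HSPC libraries. The B cell points and those of the untreated WT replicate 1 run nearly flat across the 28 later genes, at 4.47% to 10.2% and 9.21% to 22.3%, while HSPCs at 2 weeks pass 100% in the primary granule genes.

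The next comparison asked how HSPCs 2 weeks after transplantation differ from untreated HSPCs. All 4 primary granule genes rose, and this held with and without the untreated WT replicate 1. Mpo was at 168, 123, 127 and 164 CPM in untreated HSPCs and at 2206 CPM or more at 2 weeks, a 28.2-fold rise (log2 4.82 ± 0.26, adjusted p = 2.59e-08; 4.94 ± 0.32 without that library). Elane was at 16.1 and 0.982 CPM in untreated WT, 2.55 and 2.23 CPM in untreated mutant and 245 to 629 CPM at 2 weeks (log2 6.54 ± 0.80, adjusted p = 1.91e-04; 8.09 ± 0.43 without it). Ctsg was at 17.9, 9.68, 5.39 and 11.7 CPM before and 366 to 609 CPM at 2 weeks (log2 5.64 ± 0.34). Prtn3 started higher, at 31.4 to 58.7 CPM, and rose less, to 241 to 659 CPM (log2 3.42 ± 0.32).

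Ms4a3 rose from between 1.57 and 9.86 CPM to between 111 and 155 CPM (log2 5.25 ± 0.56, adjusted p = 7.21e-05). Cebpa rose from between 13.2 and 19.4 CPM to between 28.1 and 51.3 CPM (log2 1.44 ± 0.18). In all 6 of these early genes every 2-week library was above the 12 other HSPC libraries, doxorubicin and 20-week ones included. The mutant replicate 1 had the lowest value of the 4 2-week libraries in each of the 6.

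Il1r2 went the other way, from 16.7, 6.93, 6.6 and 8.12 CPM in untreated HSPCs to 1.72, 2.27, 6.75 and 2.54 CPM at 2 weeks (log2 -1.51 ± 0.35, adjusted p = 0.00143). The mutant replicate 1 at 2 weeks lay within the untreated range and the other 3 libraries lay below it. Csf3r fell from between 126 and 287 CPM to between 49.6 and 107 CPM with no overlap (log2 -0.86 ± 0.25, adjusted p = 0.0169). Padi4 fell with a log2 fold change of -0.77 ± 0.28 (adjusted p = 0.0473), a call that was lost without the untreated WT replicate 1.

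The other later genes depended on that library. With it, Ltf had untreated values of 2298, 34.0, 19.4 and 9.47 CPM, which enclosed those at 2 weeks, and a fitted log2 fold change of 1.69 ± 1.19 (adjusted p = 0.285). Without it the value was 4.24 ± 1.19 (adjusted p = 0.0268). Mmp9 moved from -0.25 ± 1.11 to 2.38 ± 0.64 (adjusted p = 0.0103) and Cxcr2 from 0.67 ± 0.90 to 2.68 ± 0.51 (adjusted p = 2.97e-04). Camp reached 3.42 ± 1.15 without it and still missed the threshold (adjusted p = 0.0535).

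With all libraries, 6 members rose and 3 fell, beside 46.1% of all 19522 genes called (21.2% higher, 24.9% lower), and the median over the members was 1.09 against -0.14 over all genes. Without the untreated WT replicate 1, 25 rose and 2 fell, beside 37.2% of 21725 genes (17% higher, 20.2% lower), and the median was 3.14. Of the calls, 8 members were called in the same direction both ways. By role, the calls without that library covered 3 of 3 early regulators and markers, 4 of 4 primary granule genes and 9 of 12 specific granule genes, all higher. In the same fit 5 of 8 gelatinase and cytosol genes and 4 of 8 receptors rose, and 2 receptors, Csf3r and Il1r2, fell. The progenitor list summed to 1352 to 1840 CPM at 2 weeks against 2632 to 3884 CPM in the 12 other HSPC libraries. Of that list, the stem cell factor Hlf stood at 53.7 to 61.4 CPM against 250 to 601 CPM. Not all of its genes were lower. Gata2 stood at 89.4 to 159 CPM at 2 weeks against 39.2 to 61.1 CPM in untreated HSPCs. Cd48 stood at 130 to 167 CPM against 114 to 135 CPM. The erythroid list summed to 982 to 1730 CPM at 2 weeks, against at most 285 CPM in untreated HSPCs, and the monocyte and macrophage list to 543 to 1006 CPM. Their part in the result was not tested.

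At 20 weeks after competitive transplantation, 2 of the 4 primary granule genes, Elane and Ctsg, were called above untreated levels with and without the untreated WT replicate 1 and on library totals. Elane was at 20.4, 21.2, 23.5 and 22.9 CPM, above all 4 untreated libraries (log2 2.64 ± 0.68, adjusted p = 0.0254; 4.2 ± 0.35 without the untreated WT replicate 1). Ctsg was at 30.1, 16.7, 30.6 and 23.4 CPM (log2 1.56 ± 0.29, adjusted p = 0.00403; 1.81 ± 0.29 without it), with 1 WT library inside the untreated range. Mpo stayed at 159 to 165 CPM, inside the untreated range of 123 to 168 CPM, and did not pass the test. Ms4a3, at 5.35 to 12.0 CPM, rose by log2 1.64 ± 0.49 (2.57 ± 0.27 without that library). Prtn3 rose by 1.03 ± 0.29 with it (adjusted p = 0.0316) and missed the threshold without it (adjusted p = 0.0696) and on library totals (0.68 ± 0.32, adjusted p = 0.141). The call of Ms4a3 was also lost on library totals (adjusted p = 0.0861).

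Ly6g, the surface antigen used to mark mouse neutrophils, was at 92.4, 1.29, 0.0952 and 0.22 CPM in untreated HSPCs and at 0.0151, 0, 0 and 0.0765 CPM at 20 weeks. It fell with and without the untreated WT replicate 1 (adjusted p = 0.0359 and 0.00314). Mmp8 was at 473, 4.94, 1.79 and 1.68 CPM before and at 0.0989 to 0.272 CPM at 20 weeks, and it fell both ways too (log2 -6.65 ± 1.53 and -3.83 ± 0.61). Itgam, at 3.12 to 6.26 CPM against 7.19 to 93.7 CPM, fell both ways (log2 -1.97 ± 0.50 and -1.06 ± 0.26), as did Il1r2 (-1.61 ± 0.35 and -1.23 ± 0.36).

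In contrast, the fall of Ltf, at 0.333 to 12.6 CPM at 20 weeks, was called with that library (log2 -5.01 ± 1.39, adjusted p = 0.0333) and not without it (-2.46 ± 0.96, adjusted p = 0.143). Cybb was called without it and not with it, at 131, 131, 78 and 147 CPM against 45.6, 43.8 and 29.5 CPM in the other untreated libraries (log2 1.94 ± 0.42, adjusted p = 0.0196). In all, 4 members rose and 14 fell, beside 23.6% of all genes called (13.1% higher, 10.6% lower). On library totals 2 rose and 17 fell, beside 32.7% (4.32% higher, 28.4% lower). Without the untreated WT replicate 1, 5 rose and 4 fell, beside 15.2% (8.15% higher, 7.04% lower), and 7 members were called in the same direction both ways. The count was 27 without the untreated WT replicate 2, and 2 or 3 without any other single library of the 2 conditions. Over the runs with 1 library left out, the genes called ranged from 2947 to 4697. In each run without a library other than the 2 untreated WT replicates, most of the 7 members lost their calls. The comparisons at 2 and 20 weeks share their untreated libraries.

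**Figure D4:**
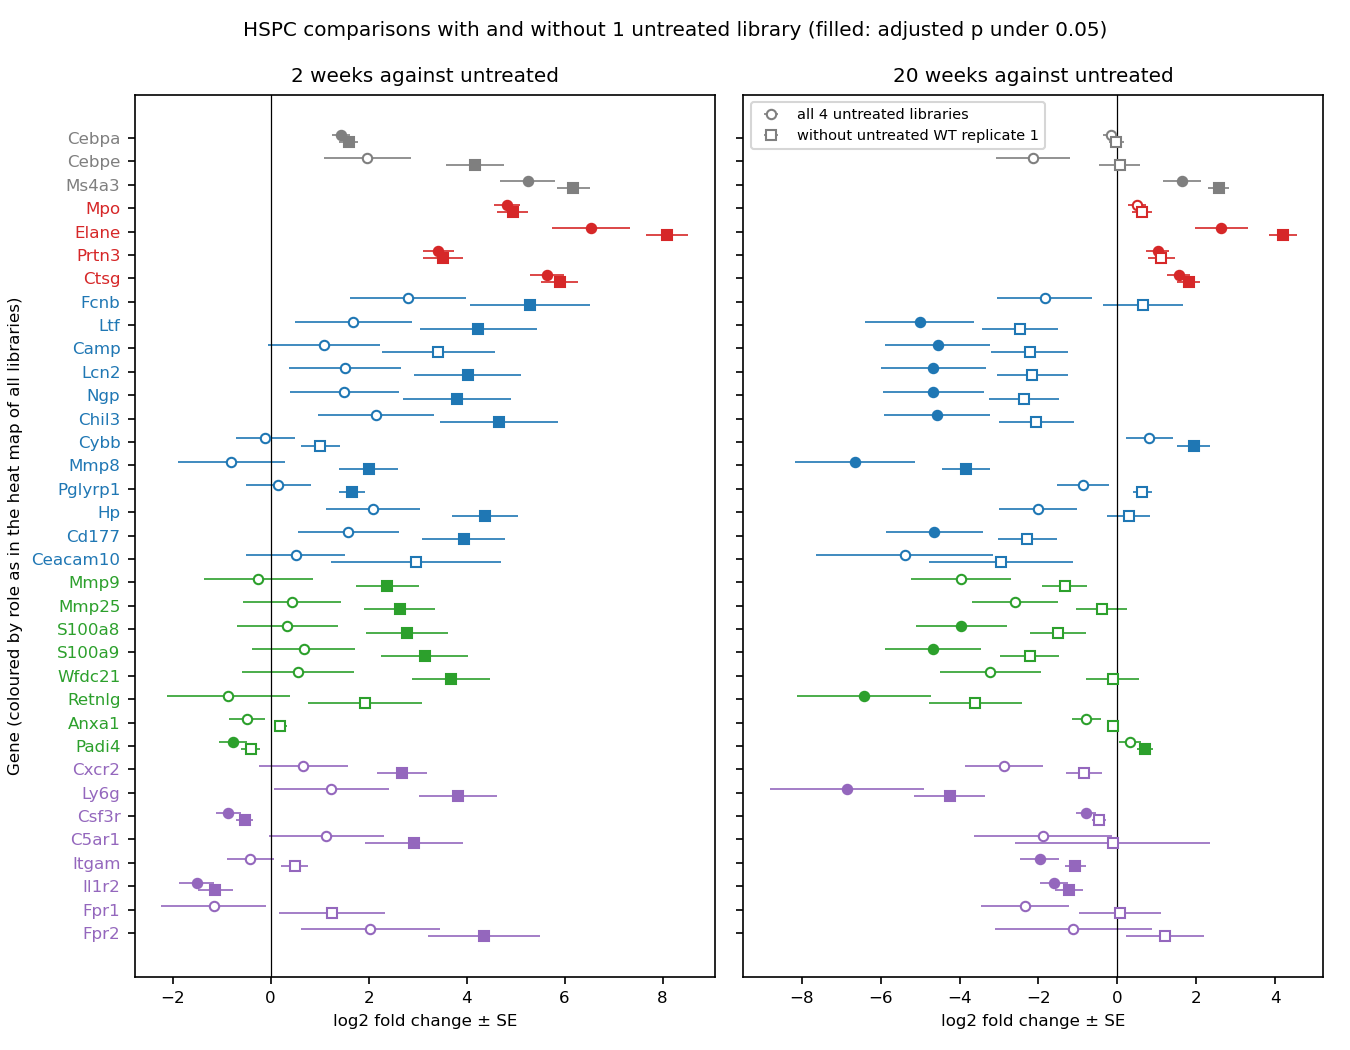
Fitted log2 fold changes of the 35 genes (rows, by role) in HSPCs at 2 weeks and 20 weeks against untreated HSPCs, with all libraries (circles) and without the untreated WT replicate 1 (squares); bars are SEs and filled symbols passed the test. The primary granule genes lie to the right at 2 weeks with or without that library, and most later genes move to the right when it is left out.

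At 12 hours after doxorubicin no member passed the threshold. Mpo was at 157, 162, 177 and 122 CPM, which overlapped the untreated libraries. Elane was at 6.61, 6.41, 3.51 and 5.40 CPM, inside the untreated range only because of the untreated WT replicate 1 (16.1 CPM). The other untreated libraries were lower, at 0.982, 2.55 and 2.23 CPM. Ltf was at 5.35 and 46.5 CPM in WT and at 26.7 and 11.9 CPM in mutant libraries, and Mmp9 at 0.737 to 2.56 CPM. edgeR's quasi-likelihood test called 0 of the 35 members, beside 0.0154% of all genes, with 11 members at an unadjusted p under 0.05. DESeq2, run on the same 19522 genes, called 4 members, and its count over all genes is given in the closing section. The median over the members was -2.03, and -0.06 without the untreated WT replicate 1, when 5 members had an unadjusted p under 0.05 and 0 were called, beside 0.00921% of all genes. Without the untreated WT replicate 2, replicate 1 alone stands for untreated WT. The counts of that run are within the leave-out ranges in the closing section. Over all runs with 1 library left out, the genes called in this comparison ranged from 1 to 139.

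The last comparisons set mutant against WT within each condition. In untreated HSPCs all 35 fitted values were below 0 (33 on library totals), with a median of -5.26 against 0.02 over all genes, and none passed the test. Mmp9 was at 619 and 8.11 CPM in WT and at 1.01 and 1.32 CPM in mutant libraries (log2 -8.11 ± 2.01, adjusted p = 0.751), and Cxcr2 at 116 and 3.70 CPM against 0.933 and 0.854 CPM. In both genes the ratio between the 2 WT libraries was larger than that between WT replicate 2 and either mutant. edgeR's quasi-likelihood test called 0 members and 0% of all genes, with 26 members at an unadjusted p under 0.05. DESeq2, run on the same 19522 genes, called 20 members, and its count over all genes is given in the closing section. Shares of all genes called, here and below, are those of edgeR at the adjusted threshold of 0.05. Member counts at an unadjusted p are given without the share of all genes at that level. Both mutant libraries were below both WT libraries in 25 members in TMM-scaled CPM, beside 17.1% of all genes, and in 23 in CPM, beside 15.2%.

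Without WT replicate 1 the median in untreated HSPCs was -0.79, 26 of the 35 values were below 0, 9 members had an unadjusted p under 0.05 and 0 were called, beside 0.0046% of all genes, with WT as 1 library that is assumed to vary like the other groups. In CPM, WT replicate 2 was above both mutants in 23 members. They are the 23 members without overlap in CPM given above, since WT replicate 1 was higher than the other 3 untreated libraries in all 35. Leaving out WT replicate 2 instead left only replicate 1 to stand for WT. The counts of that run are within the leave-out ranges for members and all genes in the closing section.

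In the other HSPC conditions the genotypes were closer. After doxorubicin the median over the members was -0.16, and edgeR's quasi-likelihood test called 0 of 35 (0 at an unadjusted p under 0.05, 0 by DESeq2), beside 0.0154% of all genes. At 2 weeks the median was 0.42 and 0 were called (1 at an unadjusted p under 0.05, 0 by DESeq2), beside 0.138%. That 1 gene was Il1r2, at 1.72 and 2.27 CPM in WT against 6.75 and 2.54 CPM in mutant libraries, so both mutants were above both WT libraries (log2 1.27 ± 0.49, adjusted p = 0.468). At 20 weeks the median was 0.31 and 0 were called (0 at an unadjusted p under 0.05, 0 by DESeq2), beside 0.00512%. Averaged over the 4 conditions, all 35 values were below 0 with a median of -0.91, and 0 were called (5 at an unadjusted p under 0.05, 1 by DESeq2), beside 0.133%. Without the untreated WT replicate 1 that median was -0.02, with 16 values above 0 and 19 below, and 0 were called (1 at an unadjusted p under 0.05), beside 0.069%.

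At 2 weeks Mpo was at 4120 and 3979 CPM in WT and at 2206 and 5257 CPM in mutant HSPCs, so the 2 mutant libraries enclosed both WT libraries (log2 -0.10 ± 0.31). The same held for Elane, Prtn3 and Ctsg. At 20 weeks Ltf was at 0.333 and 1.91 CPM in WT and at 12.6 and 4.21 CPM in mutant HSPCs, without overlap, at a fitted log2 fold change of 2.78 ± 1.84 (adjusted p = 1.0).

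In B cells all 35 fitted values were below 0, from -1.19 to -0.12 with a median of -0.81, against -0.01 over all genes. S100a9, a subunit of calprotectin, was at 3342 and 5972 CPM in WT and at 3517 and 1546 CPM in mutant B cells, so the groups overlapped. Fpr1, at 19.4 and 23.6 CPM against 13.1 and 7.99 CPM, had the smallest p (log2 -1.03 ± 0.33, unadjusted p = 0.0122, adjusted p = 0.474). The test called 0 members (5 at an unadjusted p under 0.05, 0 by DESeq2), beside 0.0684% of all genes. Both mutants were below both WT libraries in 26 members in TMM-scaled CPM, beside 20% of all genes, and in 24 in CPM, beside 19.9%. Mutant replicate 2 was the lowest of the 4 B cell libraries in 35 of 35 members and WT replicate 2 the highest in 28. These orders were not counted over all genes. Leaving out mutant replicate 1 left 1 mutant library. The counts of that run are within the leave-out ranges for members and all genes in the closing section. The B cell marker list was at 7849 and 9212 CPM in WT against 9244 and 10649 CPM in mutant libraries, with mutant replicate 2 highest. The erythroid list was at 18647 and 10415 CPM in WT and at 13116 and 7086 CPM in mutant libraries. Their part in these values was not tested.

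In the libraries labelled T cells the genotypes lay close together. Ltf was at 17141 and 16176 CPM in WT and at 18950 and 17609 CPM in mutant libraries (log2 0.26 ± 0.58). The fitted values were above 0 in 33 of 35 members (22 on library totals), between -0.11 and 0.40, with a median of 0.17 against 0.04 over all genes. edgeR's quasi-likelihood test called 0 (0 at an unadjusted p under 0.05, 0 by DESeq2), beside 0.00526% of all genes. Both mutants were above both WT libraries in 19 members in TMM-scaled CPM, beside 24.7% of all genes, and in 10 in CPM, beside 12.4%. The genotype difference itself differed between these libraries and B cells by a median of 0.96, and 0 members were called in that test (3 at an unadjusted p under 0.05), beside 0.00526%. The differences between untreated HSPCs and each other HSPC condition also called 0 members, beside 0% of all genes called. At an unadjusted p under 0.05 stood 18 to 24 members, and the share of all genes at that level is not given.

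**Figure D5:**
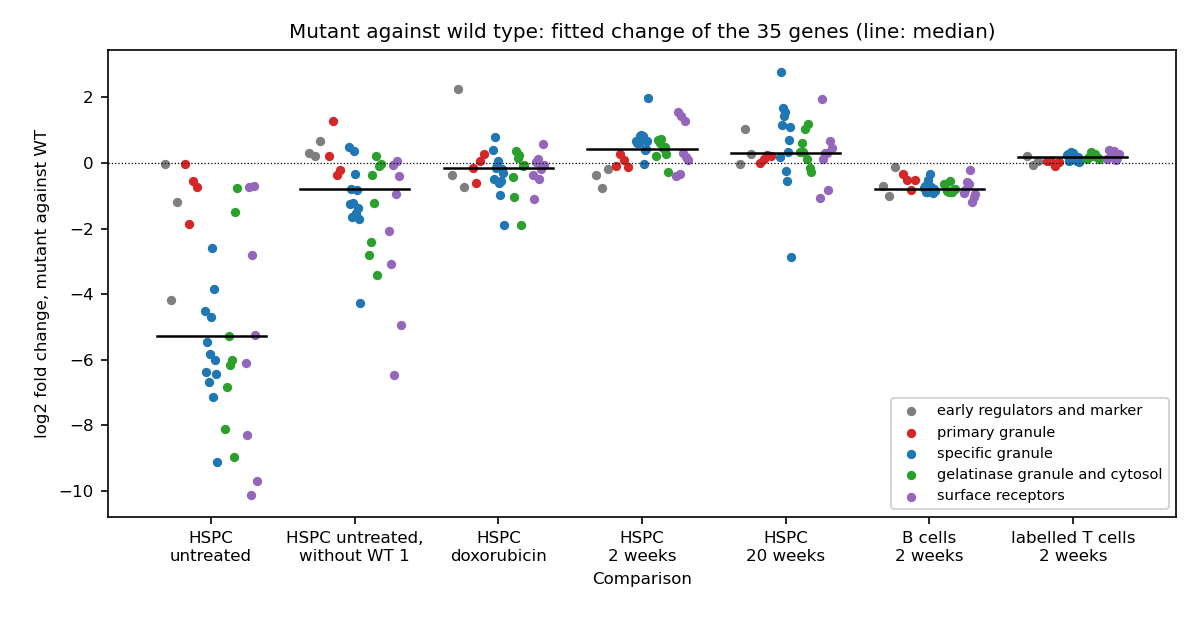
Fitted (TMM-scaled) log2 mutant against WT values of the 35 genes in each of 6 conditions and in untreated HSPCs without WT replicate 1, 1 point per gene coloured by role, with a line at the median. The untreated HSPC values spread from -10.13 to -0.02, those of B cells lie between -1.19 and -0.12, and those of the libraries labelled T cells lie between -0.11 and 0.40.

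Further genes of neutrophil development, 49 in all and chosen by name with the members, moved with them between cell labels. In the libraries labelled T cells, 43 of 48 tested rose against 2-week HSPCs and 2 fell, beside 32.6% of all genes higher and 29.3% lower. On library totals 40 rose and 5 fell, beside 19.6% and 46.3%. All 22 genes of mature neutrophils rose, led by Arg2, an arginase (log2 11.14 ± 0.44), and the stefin A protease inhibitors Stfa2 (10.69 ± 0.75) and Stfa2l1 (9.30 ± 0.78), close relatives whose reads may be shared. All 5 NADPH oxidase genes rose, among them Ncf1 and Ncf4, which encode cytosolic subunits, at 4.54 and 4.42. Of the granulopoiesis factors and cytokine receptors tested, 10 of 11 rose, led by Cebpd, at 4.97, and Cebpb, at 3.79, both C/EBP factors of later stages, and Csf2ra, the GM-CSF receptor, at 4.57. On library totals 8 of the 11 rose and 1, Runx1, fell (-0.94 ± 0.10), while Irf8, a monocyte lineage factor, turned from 0.53 to -0.32 ± 0.15 and was not called. Among other granule genes Lyz2, lysozyme, rose by 6.62 ± 0.31. The 2 that fell were Calr, an endoplasmic reticulum chaperone (-1.35 ± 0.09), and Cst7, a cystatin inhibitor of lysosomal proteases (-1.42 ± 0.17).

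Against untreated HSPCs, 8 of 47 of these genes rose at 2 weeks and 6 fell, beside 46.1% of all genes called. Prss57, another serine protease of primary granules, rose (log2 1.53 ± 0.15, adjusted p = 2.21e-07), as did Cst7 (1.51 ± 0.19), Hk3, a hexokinase of myeloid cells (1.53 ± 0.29), and Csf1r, the macrophage growth factor receptor (1.55 ± 0.51). Cxcr4, the receptor that retains cells in the marrow, fell (-0.63 ± 0.10), as did Tlr2 (-0.92 ± 0.20). At 20 weeks 5 rose and 2 fell, beside 23.6% of all genes called, and on library totals 3 rose and 15 fell, beside 32.7%. Slpi, an inhibitor of elastase and cathepsin G, was highest at 3.43 ± 0.47. Without the untreated WT replicate 1, 17 rose and 5 fell at 2 weeks, beside 17% of all genes higher and 20.2% lower. At 20 weeks 9 rose and 1 fell without it, beside 8.15% higher and 7.04% lower.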

How the data were processed

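RNA was measured in 24 stranded mRNA libraries, for all of which the labels give 1 extraction protocol, written for sorted HSPCs. Per the file headers, the authors deposited counts of reads per gene that featureCounts 2.0.1 made on GENCODE M28. FastQC, STAR and the builds mm39 and mm10 are listed by the submitters' processing notes. The number in the file header differs from the number in the label in 6 libraries, and labels were used throughout.

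From these counts, CPM and RPKM were computed, and 2 fits were made in R 4.3.3 with edgeR 4.0.16 (TMM, filterByExpr with a minimum count of 10 and total of 15, robust quasi-likelihood test, Benjamini-Hochberg adjustment over all genes, threshold 0.05). One fit held the 16 HSPC libraries and 19522 genes, the other the 12 2-week libraries and 19018 genes. Both were tested on simulated data. For genotype in untreated HSPCs the test recovered 23.2% of simulated 2-fold and 64.9% of 4-fold changes. For genotype in the libraries labelled T cells the shares were 34% and 42.9%. A count of 0 called members therefore does not show that no member changed. Also tried were fits without the count filter, with RLE size factors, with DESeq2 1.42.0, with a replicate block, with only the groups compared and without each library in turn, and, added after seeing the data, on library totals without TMM. Named genes were Mpo, Elane, Ltf, Camp, Mmp9, Cxcr2, Prtn3 and Ctsg, up to 6 further members a comparison (called ones of largest change with average log2 CPM of at least 1, else those of smallest p) and up to 3 genes of each other list. Other members and genes named beside counts were chosen after their values were seen. The values of some genes of the other lists are not reported here. The members and lists were chosen with earlier results of these data known. Promoters came from RefSeq's GRCm38.p6 table, and coordinates were not mixed with those of the count files. Counting error alone underlies the precision of single values.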

Additional observations from a re-analysis of the deposited data

How the results depend on the processing

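Members called kept within 1.5 times the reported count in every comparison between cell labels under each alternative run. Elsewhere, DESeq2 called 20 members for genotype in untreated HSPCs, 1 for its mean over conditions and 4 for doxorubicin. It was run on the same 19522 genes of the HSPC fit and 19018 of the 2-week fit. Without the count filter, members called for genotype were 31 in untreated HSPCs, 3 after doxorubicin, 6 at 2 weeks and 7 at 20 weeks. They were 26 for the mean and 27 in B cells. Against untreated they were 25 for doxorubicin, 26 at 2 weeks and 31 at 20 weeks. All genes called in those last 2 comparisons stayed within 1.5 times the reported 9000 and 4612, and the others are given below. How many genes were tested without the filter is not given, so no share stands beside these counts. On library totals without TMM, chosen after seeing the data, genes called for genotype were 17 for the mean and 7 in B cells. With only the groups compared, 5 members were called at 20 weeks against untreated. Genes called for genotype in untreated HSPCs were 152 with DESeq2 and 467 without the filter; after doxorubicin 282, 474 and, with only the groups compared, 256; at 2 weeks 261, 399 and 2; at 20 weeks 20, 149 and 4; for the mean 324 and 618; in B cells 212, 506 and 3; and in the libraries labelled T cells 23, 150 and 0. For doxorubicin against untreated they were 99, 421 and 19. The cause was not tested.

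By the replicate numbers of the labels, WT and mutant deviations were close to unrelated, with correlations between -0.13 and 0.09. Pairing by the header numbers, which differ from the labels in 6 libraries, was not tested. With a replicate block, members called at 20 weeks against untreated were 9, and 8 at 2 weeks; genes called for genotype were 16 at 2 weeks, 2 at 20 weeks and 13 for the mean. With crossed numbers after doxorubicin, chosen after seeing the data, 1 member and 1303 genes were called for genotype.

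Leaving out 1 library at a time, members called ranged from 7 to 27 at 2 weeks and 2 to 27 at 20 weeks against untreated, 0 to 6 for doxorubicin, 21 to 30 for B cells and 32 to 33 for the libraries labelled T cells against HSPCs, and 35 to 35 between them. For genotype they were 0 to 21 in untreated HSPCs, 0 to 0 after doxorubicin, 0 to 1 at 2 weeks, 0 to 0 at 20 weeks, 0 to 5 for the mean, 0 to 3 in B cells and 0 to 0 in the libraries labelled T cells. Genes called ranged from 7499 to 8848, 2947 to 4697, 1 to 139, 8753 to 10107, 10522 to 11527 and 8853 to 9182 in the first 6 comparisons, and for genotype from 0 to 250, 0 to 2, 11 to 672, 0 to 302, 3 to 316, 2 to 151 and 0 to 2, in the same order. The primary to specific ratio ranged from -2.55 to -0.33 (untreated), -0.41 to 0.38 (doxorubicin), 0.41 to 1.21 (2 weeks), 1.37 to 1.59 (20 weeks), -4.54 to -4.26 (B cells) and -6.36 to -6.14 (labelled T cells). The primary to late ratio ranged from -4.36 to -2.34, -2.13 to -1.64, -0.43 to 0.41, -0.09 to 0.11, -6.67 to -6.24 and -8.12 to -7.81, in that order.

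Without division by length, the primary to specific ratio was 0.78 at 20 weeks, and the primary to late ratio -1.12 after doxorubicin, 1.71 at 2 weeks, -4.97 in B cells and -6.44 in the libraries labelled T cells. As a difference of mean log2(RPKM + 0.5), which weights genes equally, the primary to specific values were 0.40, 2.26, 3.83, 3.91, -1.60 and -3.37 in the same order, and the primary to late values 0.58, 2.33, 5.53, 3.71, -0.72 and -2.33.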
